A study of Homo sapiens with 4 samples.

Results

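Pericellular proteolysis and tissue factor genes were examined in MV4-11, a human cell line long grown in culture that stems from an acute myeloid leukaemia and has features of monocytes. The group comprises the metalloproteinase genes MMP2, MMP9 and MMP14, their inhibitor genes TIMP1 and TIMP2, the coagulation genes F3 and TFPI, and PLAUR, PLAU and SERPINB2 of the plasminogen activator system. These 10 genes were chosen by name with their differences between these arrays already known, and each was represented by the probe set of its own symbol with the highest mean over the 4 arrays. A probe set under their own symbol was found for 9 genes, which are 9 of 17067 protein-coding genes so represented. Signal of SERPINB2 was not analysed here. With the measured differences used in the choice, every count and difference given for these genes is a description, and none was tested.

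The cells carried 1 of 4 short hairpin RNAs and had been kept in 3 µM doxycycline for 24 h, control included. The control hairpin is aimed at luciferase. The other 3 are given in the genotype labels as aimed at RUNX1, which binds DNA and directs the formation of blood cells, and are labelled moderate, profound 1 and profound 2, the profound ones being separate hairpins. Titles and genotype labels, which the groups follow, give RUNX1 as the target of all 3, whereas GEO's free-text description gives RUNX2 for profound 1 and RUNX3 for profound 2, and this conflict was not resolved. Total RNA of each was hybridised to 1 whole-transcript array, and values are log2 RMA signals, in which a difference of 1 is a doubling. The labels give neither a second culture nor the RUNX1 protein left in the cells.

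Matrix metalloproteinases are zinc proteases that cut collagens and other matrix proteins. MMP14 is anchored in the cell membrane and, with TIMP2 as adaptor, activates the secreted MMP2 proenzyme at the cell surface, while the TIMP proteins in general inhibit the active enzymes. Urokinase, the PLAU product, is held on leukocytes by its receptor PLAUR and turns plasminogen into plasmin, and SERPINB2 is an inhibitor of urokinase made by monocytes. Tissue factor, the F3 product, is the membrane receptor of factor VII that starts coagulation, on monocytes among other cells, and TFPI is its inhibitor. Cells of acute myeloid leukaemia with monocytic features are known to carry tissue factor and urokinase receptor.

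With 1 array a group no difference has a replicate check, and no p-value is given. The array medians lay between 3.07 and 3.09. As a yardstick, the 12519 protein-coding genes with a signal over the table median (3.08) in 1 array or more were divided into 6 classes by mean level, and a difference between 2 arrays is set beside the spread of that difference within the class (a robust SD, from the median absolute deviation). That spread holds noise and real differences together. The RUNX1 probe set, shared with an uncharacterised locus, read 4.27 in control, 4.33 in moderate, 4.07 in profound 1 and 4.04 in profound 2, so the labels are not borne out by a clear loss of RUNX1 signal and directions below are between labels, with profound 1, for example, standing for the array so labelled. Of 10 measured monocyte and macrophage markers, 6 passed the level filter, among them LYZ (11.34 to 11.57) and CSF1R (7.39 to 7.79), whereas the defining marker CD14 stayed below the table median in all 4 arrays (2.10 to 2.33). The other markers below it were MRC1, CD163 and VCAN. Of 6 measured fibroblast markers, the cells in which MMP2 and TIMP genes are best known, 2 passed, and the highest of them, COL1A1, lay between 3.39 and 3.62.

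Among the metalloproteinases, MMP2 and MMP14 had signal far above the table median and were lower in both arrays labelled profound, and MMP9 was near the floor. MMP2 encodes gelatinase A, a secreted enzyme that cuts denatured and basement membrane collagen. Its signal was 8.01 in control, 8.34 in moderate, 7.42 in profound 1 and 7.33 in profound 2. Both arrays labelled profound thus read low and the array labelled moderate read highest. The differences from control were -0.59 in profound 1 and -0.68 in profound 2, signals 1.51-fold and 1.60-fold lower. Against a spread of 0.22 for profound 1 and 0.13 for profound 2 in its level class, both exceeded the spread, and the former lies just past the 1.5-fold size (0.58 log2 units). At least as low a difference from control was read by 4.94% of the genes of that class in profound 1 and 0.0479% in profound 2. The array labelled moderate was 0.33 above control, where the spread was 0.11 and 0.671% of the class read as high a difference or higher. Compared with moderate instead of control, the difference of MMP2 was -0.92 in profound 1, and its signal was 2.01-fold lower in profound 2.

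A second probe set of MMP2 stayed below the table median in every array. It read 2.16 in control, 2.23 in moderate, 2.00 in profound 1 and 1.81 in profound 2. The order of control, moderate and the profound labels is like that of the bright probe set, but its differences from control (0.07, -0.16 and -0.35) are those of a dim probe set. With the mean of both probe sets MMP2 would be at -0.38 in profound 1 and -0.51 in profound 2, short of 1.5-fold.

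MMP14 encodes the membrane-anchored metalloproteinase MT1-MMP. It read 7.99 in control, 8.04 in moderate, 7.49 in profound 1 and 7.53 in profound 2. Control and moderate lay close together (0.05 apart, spread 0.13), with both arrays labelled profound below them and 0.04 apart. The differences from control, -0.50 and -0.46, were short of 1.5-fold and exceeded the spreads of 0.26 and 0.15. In profound 1 as low a difference was not rare in its level class (8.10%), whereas in profound 2 it was read by 0.959% of the class. MMP9 encodes gelatinase B, which leukocytes store and secrete. Its signal was 3.33 in control, 3.35 in moderate, 3.30 in profound 1 and 2.97 in profound 2, the last below the table median. The difference of -0.37 in profound 2 exceeded the spread of 0.25 for its class, where 5.80% of genes read as low a difference or lower. Such dim values are close to the floor, and the first 3 arrays were within 0.05 of each other.

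**Figure D1:**
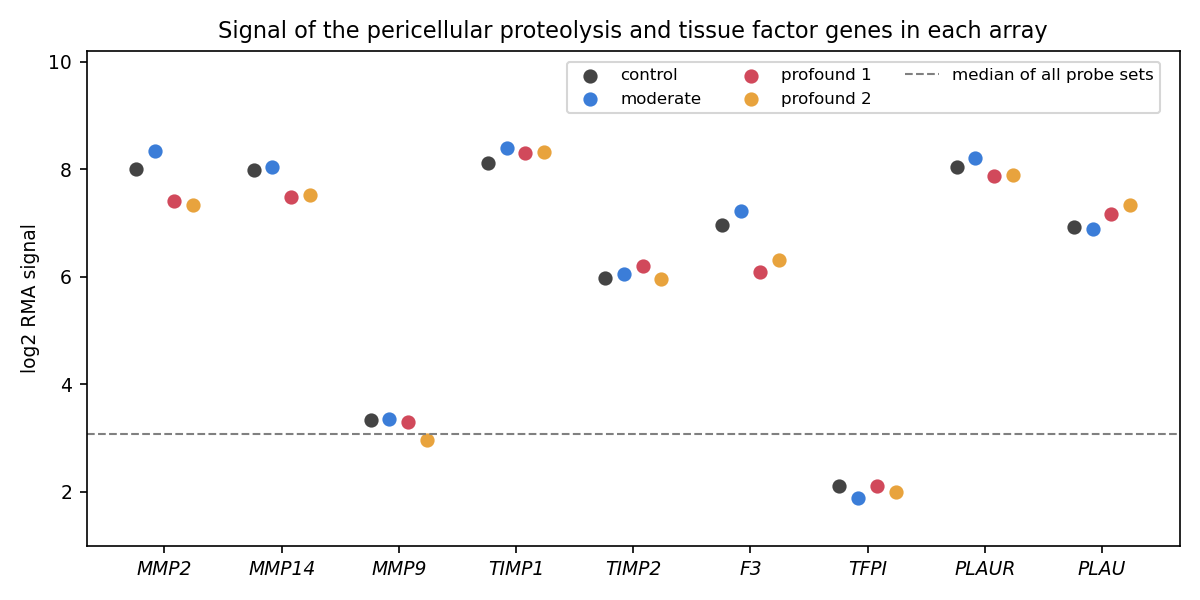
Each point is the log2 RMA signal (vertical axis) of 1 gene (horizontal axis) in 1 array, coloured by hairpin label, and the dashed line is the median of all probe sets (3.08). MMP2, MMP14 and F3 read lower in both arrays labelled profound than in control and moderate, PLAU read higher there, MMP9 lay just above the line in 3 arrays and below it in profound 2, and TFPI lay below it in all 4.

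The inhibitors of metalloproteinases did not share the lower values of MMP2 and MMP14. TIMP1, a secreted inhibitor of most metalloproteinases, read 8.12 in control, 8.39 in moderate, 8.30 in profound 1 and 8.32 in profound 2. The control array was thus the lowest and the 3 arrays labelled as RUNX1 knockdown lay within 0.09 of each other. The differences from control were 0.27, 0.18 and 0.20, of which the first and the last exceeded their spreads (0.11 and 0.13) and that of profound 1 did not (0.22). TIMP2, the inhibitor that also links pro-MMP2 to MMP14, read 5.98 in control, 6.05 in moderate, 6.20 in profound 1 and 5.95 in profound 2. Every difference of TIMP2 from control was within its spread: 0.07 against 0.15, 0.22 against 0.28 and -0.03 against 0.18. The arrays labelled profound lay on both sides of those labelled control and moderate.

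F3 had the widest range of the 9 genes. It read 6.96 in control, 7.21 in moderate, 6.09 in profound 1 and 6.31 in profound 2. As with MMP2, both arrays labelled profound were low and moderate was highest. The differences from control were -0.87 in profound 1 (1.83-fold lower, spread 0.28) and -0.64 in profound 2 (1.56-fold lower, spread 0.18). Within its level class, 0.959% and 0.479% of genes read as low a difference or lower. Of all 12519 genes, 6 were at least as far below control in both arrays, F3 included, and for MMP2 the corresponding number was 18. The array labelled moderate was 0.26 above control (spread 0.15), and compared with it F3 was at -1.13 in profound 1 (2.18-fold lower) and -0.90 in profound 2 (1.86-fold lower). TFPI, which encodes the inhibitor of the tissue factor and factor VIIa complex, read 2.11 in control, 1.88 in moderate, 2.11 in profound 1 and 1.99 in profound 2. All of these are below the table median, and values at this level give no order of the arrays.

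The stretch of 250 bases before the annotated start is shown for F3 and MMP14, which were lower together in both arrays labelled profound, and for TIMP1, which was not. The sequences are RefSeq's, of build GRCh38.p14, and the table used holds 7 of the 10 genes, MMP2, MMP9 and TIMP2 not among them, with 2 windows for PLAU. Capitals mark the core RUNX motif TGTGGT or, on the opposite strand, ACCACA. The related form TGCGGT was searched likewise on both strands and had no match in these windows.

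F3, chr1:94541760-94542009, minus strand: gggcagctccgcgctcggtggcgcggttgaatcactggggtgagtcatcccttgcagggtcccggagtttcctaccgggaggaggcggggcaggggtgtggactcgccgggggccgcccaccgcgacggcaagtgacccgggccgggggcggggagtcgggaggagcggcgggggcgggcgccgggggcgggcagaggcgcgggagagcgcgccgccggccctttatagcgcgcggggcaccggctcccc
MMP14, chr14:22836335-22836584, plus strand: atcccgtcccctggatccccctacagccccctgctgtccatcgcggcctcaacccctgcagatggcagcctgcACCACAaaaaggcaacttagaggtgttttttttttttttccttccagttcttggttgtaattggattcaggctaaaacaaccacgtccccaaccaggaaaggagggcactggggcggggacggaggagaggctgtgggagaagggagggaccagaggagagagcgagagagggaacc
TIMP1, chrX:47582186-47582435, plus strand: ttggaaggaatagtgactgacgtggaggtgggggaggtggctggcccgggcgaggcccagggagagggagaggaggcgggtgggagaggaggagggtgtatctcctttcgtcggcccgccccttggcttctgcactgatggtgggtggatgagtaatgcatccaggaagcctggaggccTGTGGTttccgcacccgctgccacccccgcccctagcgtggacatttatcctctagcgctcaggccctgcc

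The F3 window holds neither motif. The MMP14 window holds TGTGGT on the opposite strand, 172 to 177 bases before the start, and the TIMP1 window holds it on the strand of the gene, 66 to 71 bases before the start. TGTGGT was found in 11.0% of 35116 such windows of all genes and TGCGGT in 5.84%, and 16.3% held at least 1 of them. Of the 7 genes of this group in the table, MMP14 and TIMP1 were the 2 with a match. A match is a run of letters in this window and was not tested as a binding site. Bases of F3 in this window are 78.0% G or C, those of MMP14 56.8% and those of TIMP1 64.8%.

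Of the plasminogen activator system, the receptor gene read lower and the protease gene higher than control in both arrays labelled profound, mostly by little. PLAUR, the urokinase receptor gene, read 8.03 in control, 8.21 in moderate, 7.88 in profound 1 and 7.89 in profound 2. Moderate was highest and both arrays labelled profound lowest, but their differences from control were small. They were -0.15 in profound 1, within the spread of 0.22, and -0.14 in profound 2, just past the spread of 0.13. As low a difference was common in its level class, at 28.5% of genes in profound 1 and 14.7% in profound 2. Against moderate PLAUR was at -0.33 and -0.32, signals 1.26-fold and 1.25-fold lower. PLAU, the urokinase gene, read 6.93 in control, 6.89 in moderate, 7.16 in profound 1 and 7.32 in profound 2. Both arrays labelled profound thus lay above control and moderate, which were 0.04 apart. The difference from control was 0.24 in profound 1, within the spread of 0.26 and reached by 15.7% of the genes of its class. In profound 2 it was 0.40 (1.32-fold higher), beyond the spread of 0.15 and reached by 1.63% of the class.

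Counted over the 8 genes that passed the level filter (TFPI did not), 2 were at least 1.5-fold lower than control in profound 1, where 4.04% of all genes tested were, and 2 in profound 2, where 1.01% were. The genes are MMP2 and F3 in both arrays, and 0.304% of all genes were lower in both. None was at least 1.5-fold higher in either array. The same MMP2 and F3 were 1.5-fold lower than moderate in profound 1 (3.49% of all genes), in profound 2 (1.6%) and in both (0.487%). At 2-fold this left F3 in profound 1 (0.296%) and MMP2 in profound 2 (0.144%). No gene of the group differed 1.5-fold between moderate and control, where 1.31% of all genes did in either direction, or between profound 1 and profound 2, where 5.01% did. Since the group was chosen with these differences in view, nothing is read from its shares against those of all genes. The medians over the 8 genes were 0.13 for moderate, -0.09 for profound 1 and -0.25 for profound 2 against control, beside 0.01, -0.003 and -0.001 over all genes tested. These comparisons share the control array.

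In 5 of the 8 genes (MMP2, MMP14, MMP9, F3 and PLAUR) both arrays labelled profound lay below both control and moderate, as in 20% of all genes, and in PLAU both lay above, as in 17.6%. The gap between those pairs of arrays was 0.64 for F3, 0.59 for MMP2, 0.46 for MMP14, 0.24 for PLAU, 0.14 for PLAUR and 0.03 for MMP9. Downward gaps at least as wide were found in 0.0719% of all genes for F3, 0.112% for MMP2, 0.272% for MMP14, 5.58% for PLAUR and 15.4% for MMP9. An upward gap as wide as that of PLAU was found in 1.89%. The gaps of F3, MMP2 and MMP14 were wider than those of PLAUR and MMP9. As the genes were chosen with their differences known, nothing further is read from these shares.

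The arrays labelled profound differed little from each other in these genes. The largest difference between them was that of MMP9 (0.34 higher in profound 1, spread 0.29), a dim gene, followed by TIMP2 (0.25, spread 0.25) and F3 (-0.23, spread 0.25). MMP2, MMP14, TIMP1, PLAUR and PLAU differed by 0.16 or less between them, each within its spread. TIMP2 and F3 were within their spread as well, TIMP2 by little. The neighbouring levels of these 5 genes, TIMP2 and F3 in both arrays were therefore not separable.

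**Figure D2:**
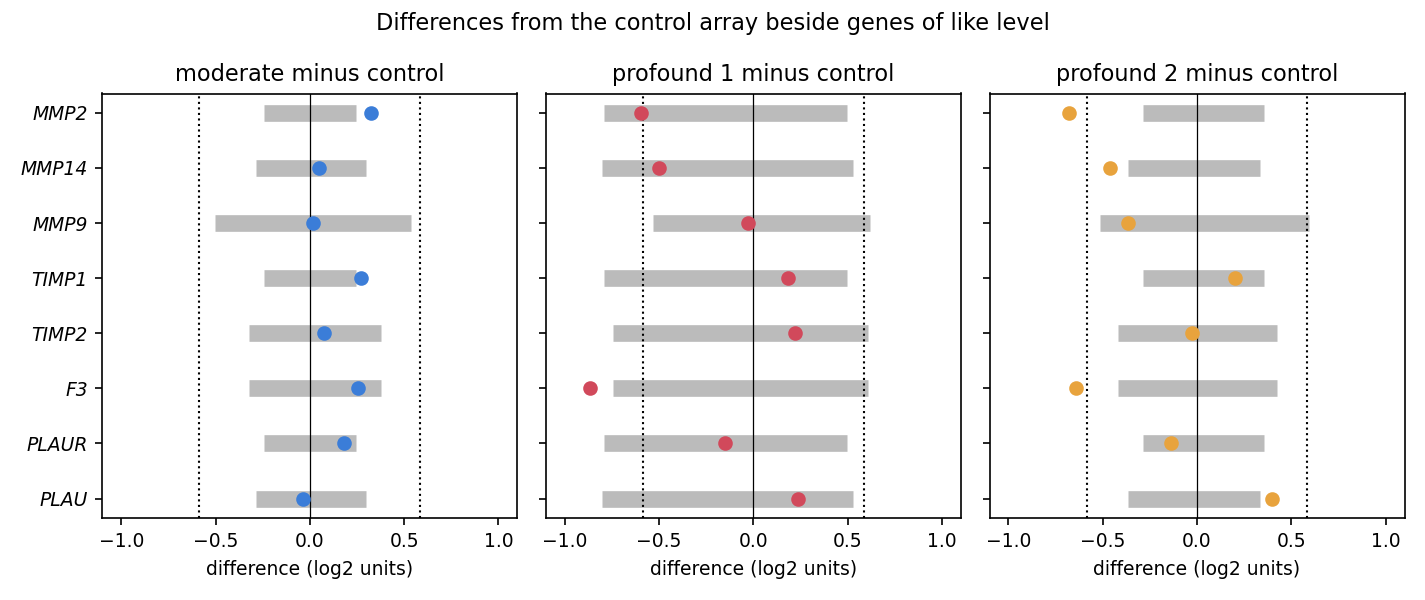
Points are the log2 difference of each gene from the control array (horizontal axis) in the arrays labelled moderate, profound 1 and profound 2, grey bars are the central 95% of genes of the same level class in that comparison, and dotted lines mark 1.5-fold. F3 lay below the bar in both arrays labelled profound, MMP2 and MMP14 in profound 2 alone, PLAU lay above it in profound 2, and MMP2 and TIMP1 lay above it in moderate.

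The grey bars are wider for profound 1 than for profound 2, which the plot of differences from control shows for every gene. The central 95% of the class of MMP2 ran from -0.79 to 0.50 in profound 1 and from -0.29 to 0.35 in profound 2. A difference of like size therefore stands out less in profound 1.

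Over 6 lists of 126 genes in all, which leave out the genes above, 75 passed the level filter. Of these, 2 were at least 1.5-fold higher and 2 lower than control in moderate (1.31% of all genes tested differed), 4 higher and 3 lower in profound 1 (6.73%), and 1 higher and 1 lower in profound 2 (2.21%). As shares of the 75 genes these are 5.33%, 9.33% and 2.67%. SLPI, a secreted inhibitor of neutrophil elastase, was the 1 gene of these at least 1.5-fold higher in both arrays labelled profound, at 4.17 in control, 4.54 in moderate, 5.17 in profound 1 and 5.00 in profound 2, where 0.335% of all genes were. Its signal was above control in all 3 arrays labelled as RUNX1 knockdown.

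Among 24 further metalloproteinase and inhibitor genes, 11 passed the filter and 13 stayed below the table median in every array, including MMP1, MMP8 and MMP12. None was at least 1.5-fold lower or higher than control in either array labelled profound, where 6.73% (profound 1) and 2.21% (profound 2) of all genes were. MMP25, a membrane-anchored metalloproteinase of leukocytes, was at least 1.5-fold higher in moderate (3.53 in control, 4.33 in moderate, 3.65 in profound 1 and 3.46 in profound 2). RECK, a membrane-bound inhibitor of metalloproteinases, lay between 3.85 and 4.02. BSG, which encodes the metalloproteinase inducer basigin, lay between 10.40 and 10.48, so it hardly varied. The median difference from control of these 11 genes was 0.12 in profound 1 and 0.04 in profound 2.

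ADAM and ADAMTS proteases, which shed surface proteins or cut matrix, had 10 genes past the filter and none at 1.5-fold from control. Of all genes, 1.31% were so in moderate, 6.73% in profound 1 and 2.21% in profound 2. With so few genes a count of none is near these shares. The median difference of these 10 genes from control was 0.26 in profound 1, 0.18 in profound 2 and 0.04 in moderate. ADAM10, a main sheddase of surface proteins, read 8.13 in control, 8.26 in moderate, 8.59 in profound 1 and 8.55 in profound 2. Its differences of 0.46 and 0.42 from control in both arrays labelled profound were below 1.5-fold. The plasminogen activation list had 10 genes past the filter and none at 1.5-fold, beside the same shares of all genes. Its medians were 0.10, 0.02 and 0.05 in moderate, profound 1 and profound 2. Plasminogen itself (PLG, 2.22 to 2.51) stayed below the table median in all 4 arrays.

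In the coagulation list, 14 genes passed the filter. F13A1, the factor XIII A subunit gene of monocytes and platelets, read 6.72 in control, 7.35 in moderate, 7.53 in profound 1 and 7.30 in profound 2. Control was thus lowest, and the difference reached 1.5-fold in moderate (0.63) and profound 1 (0.81), and 0.58 in profound 2. After cyclic loess, another normalisation of the arrays, it was at 0.60 in profound 2 and so passed 1.5-fold in both arrays labelled profound, beside SLPI. F2R, a thrombin receptor gene, read 5.79 in control, 5.19 in moderate, 5.53 in profound 1 and 5.51 in profound 2, and was 1.51-fold lower in moderate. THBD, the thrombomodulin gene, whose product makes thrombin an activator of protein C, read 6.73, 6.85, 6.89 and 7.26 in the same order of arrays. F7, which encodes the ligand of tissue factor, lay between 3.24 and 3.41, and TFPI2 stayed below the table median (1.83 to 2.11).

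Cathepsins, serine proteases and their inhibitors had 18 genes past the filter. Besides SLPI, CPM, a membrane carboxypeptidase gene of macrophages, was at least 1.5-fold higher in profound 1 (7.68 in control, 7.93 in moderate, 8.40 in profound 1 and 8.11 in profound 2). HPSE, the heparanase gene, was at least 1.5-fold lower in profound 1 (4.92, 4.87, 3.94 and 5.10). ANPEP, which encodes the aminopeptidase CD13, was so too and at -0.33 in profound 2 (4.35, 4.62, 3.56 and 4.02). CST7, a cystatin gene, was at least 1.5-fold lower in profound 2, with differences from control of -0.41 in moderate, -0.45 in profound 1 and -0.75 in profound 2. Of the matrix and protease anchoring surface genes 12 passed. SDC4, a heparan sulphate proteoglycan gene, was at least 1.5-fold lower in moderate, where it read below the table median, and at -0.42 in profound 1 (3.83, 2.52, 3.41 and 3.97). SDC2, another such gene, was at least 1.5-fold lower in profound 1 (7.49, 7.31, 6.76 and 7.19), and the membrane scaffold gene CAV1 was at least 1.5-fold higher there (3.60, 3.95, 4.26 and 3.83).

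**Figure D3:**
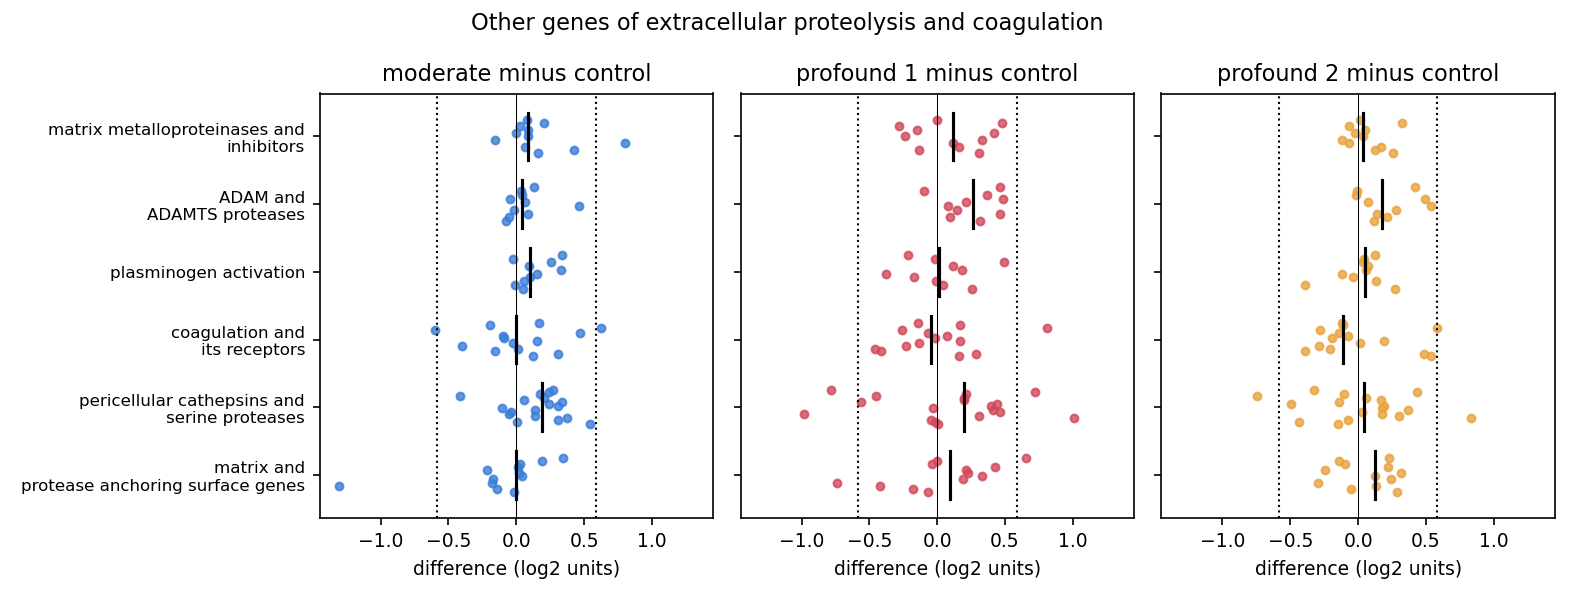
Points are genes of 6 lists that passed the level filter, placed by their log2 difference from the control array (horizontal axis) in each of 3 arrays, black bars are list medians and dotted lines mark 1.5-fold. Most of the 75 genes lay between the dotted lines, with 4 outside in moderate, 7 in profound 1 and 2 in profound 2.

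Genes with the array profile most like that of F3 and of MMP2, the genes of the group with a range over 1.5-fold, were sought among genes within 1.0 log2 unit of their mean level. Likeness was the Euclidean distance over the 4 arrays after each gene's mean was subtracted. As the genes named were picked by this distance, a pattern shared with F3 or MMP2 follows from the choice. For F3, with 4032 candidates and a median distance of 0.92, the nearest were IL7R, the interleukin 7 receptor gene (0.079), the myeloid membrane protein gene MCEMP1 (0.16) and TNF (0.27), a cytokine gene of monocytes. IL7R read 6.84 in control, 7.14 in moderate, 5.94 in profound 1 and 6.27 in profound 2. For MMP2, with 3144 candidates and a median distance of 0.84, they were the ribonuclease gene RNASE6 (0.20), ALOX5AP, whose product is needed for leukotriene synthesis (0.25), and TNF (0.28). RNASE6 read 7.60 in control, 8.07 in moderate, 7.17 in profound 1 and 6.86 in profound 2. TNF was the 1 gene on both short lists, at 7.73, 7.69, 6.93 and 6.99, without the higher value in moderate that F3 and MMP2 had.

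**Figure D4:**
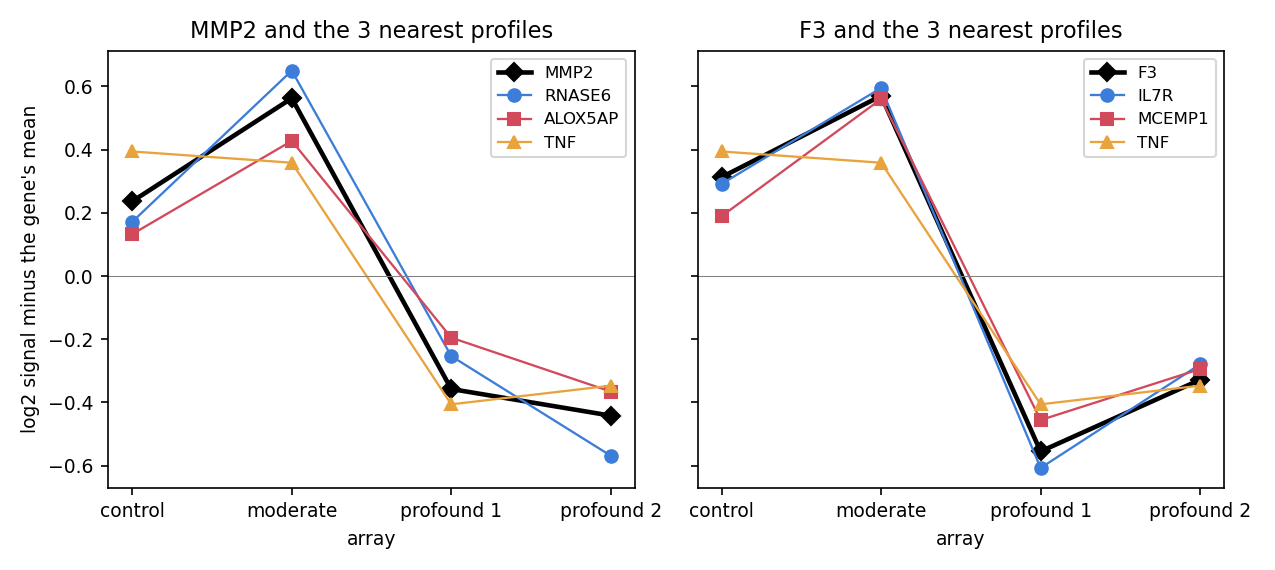
Lines join the log2 signals of a gene in the 4 arrays (horizontal axis) after its mean over the arrays was subtracted (vertical axis), in black for MMP2 (left) and F3 (right) and in colour for the 3 nearest genes of each. All were higher in control and moderate than in both arrays labelled profound, a likeness for which the genes in colour were picked. TNF alone did not read highest in moderate.

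The summed linear signal of the 10 measured monocyte and macrophage markers was 3564 in control, 4009 in moderate, 4269 in profound 1 and 4260 in profound 2. This sum, of which LYZ is the brightest member, was higher than control in all 3 other arrays, but its members did not move alike. LYZ was at 0.23, 0.13 and 0.15 from control in moderate, profound 1 and profound 2, and CD300E at -0.11, -0.25 and 0.03. CD68 was below control in moderate (-0.14) and above it in profound 1 (0.70) and profound 2 (0.63). Of the 6 markers past the filter, CD68 was at least 1.5-fold higher than control in both arrays labelled profound, where 0.335% of all genes were. MS4A7 was so in profound 1 (0.80), where 2.68% of all genes were. None was at least 1.5-fold lower, where 4.04% of all genes were in profound 1 and 1.01% in profound 2. CSF1R read 7.50, 7.79, 7.39 and 7.65 in the same order of arrays. The summed signal of 6 fibroblast markers was 41.4, 40.9, 41.1 and 38.5, that of 8 endothelial markers 90.5, 101, 99.1 and 100.4, and that of 7 megakaryocyte and platelet markers 97.7, 102, 91.6 and 100.8. The level filter was passed by 4 of the 8 endothelial markers, among them EGFL7 (4.90 to 5.31). It was also passed by 5 of the 7 megakaryocyte and platelet markers, among them PF4 (4.97 to 5.14). Others stayed below the table median in every array, such as the fibroblast marker DCN (1.51 to 1.77), the endothelial VWF (2.40 to 2.66) and the platelet PPBP (1.55 to 1.87). The part of the marker levels in these results was not tested. In such bulk samples, fewer cells of a type and less RNA per cell cannot be told apart.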

How the data were processed

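The authors deposited log2 signals of 53617 probe sets, for which the submitters' processing notes name RMA, Affymetrix Expression Console (1.3.1) and, besides, Transcriptome Analysis Console (1.0). RMA subtracts background, quantile-normalises the arrays and summarises probes, so a shift of most genes or of total RNA cannot be seen, and differences of dim probe sets are understated. Settings of RMA were not given in the sources used here, nor was a build.

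Groups came from the genotype labels, and all columns were used (0 unused). The platform annotation gives 23871 probe sets 1 symbol, 1842 several and 27904 none. Of the symbols, 23214 stand in RefSeq's table (GRCh38.p14) as they are, 88 were renamed by Entrez ID and 565 by synonym, and 4 were kept. Probe sets with several symbols named no gene, apart from that of RUNX1. Genes tested were protein coding with a signal above the table median (3.08) in at least 1 array. Differences were described by size (1.5-fold and 2-fold) without a test. From each list, genes at 1.5-fold from control were named, at most 4 per comparison, and the 3 nearest profiles of each gene of the group with a range over 1.5-fold. Other list genes (MMP1, MMP8, MMP12, RECK, BSG, ADAM10, PLG, THBD, F7 and TFPI2) and markers were named for their function after their values were seen. The members and lists were chosen with earlier results of these data known. Alternatives were median centring, cyclic loess (limma 3.58.1 in R 4.3.3), the mean of a gene's probe sets, 2 other level filters, the 2-fold size and genes of any class. Other steps used Python 3.11.15 with pandas 2.3.3 and numpy 2.4.6.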

Additional observations from a re-analysis of the deposited data

How the results depend on the processing

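Centring each array on its median and cyclic loess moved the 54 differences of the 9 genes by at most 0.018 and 0.032 log2 units, and the 3 genes nearest to MMP2 and to F3 were the same 3 under both, an alternative chosen after seeing the data. After cyclic loess MMP2 was at -0.58 in profound 1, just short of 1.5-fold, so that 1 gene (F3) was counted in profound 1 and in both arrays labelled profound against control. With the mean of all probe sets of a symbol 1 gene was counted in profound 1, in profound 2 and in both against control, and 1 in profound 1 against moderate. The MMP2 differences were then 0.20 in moderate and -0.51 in profound 2 against control, and -0.58 and -0.71 against moderate. At 2-fold, 0 genes of the group were counted against control in profound 1, profound 2 or both, and 1 in each of profound 1 and profound 2 against moderate. The 2-fold counts over the 6 lists were 1 in moderate, 1 in profound 1 and 0 in profound 2. After cyclic loess the list count in profound 2 was 3 instead of 2, F13A1 being added. The other level filters changed no count of the group or of the lists beyond 1.5 times. With genes of any class, also chosen after seeing the data, 2.05% of genes differed 1.5-fold between moderate and control instead of 1.31%. No paired analysis was possible because each hairpin has 1 array, and leaving out an array leaves its group empty. Precision is limited by the number of arrays, and MMP9 and TFPI are limited by their low signal.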

Other observations

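Markers of other blood cells were read beside the genes above. Of 8 granulocyte markers 6 passed the level filter, with medians of 0.14 in moderate, 0.33 in profound 1 and 0.28 in profound 2. None was at 1.5-fold from control, where 1.31%, 6.73% and 2.21% of all genes were in these 3 arrays. The neutrophil elastase gene ELANE, a protease that also acts on matrix, read 10.31 in control, 10.45 in moderate, 10.72 in profound 1 and 10.68 in profound 2. Proteinase 3 (PRTN3) read 11.30, 11.43, 11.60 and 11.60 in the same order. Of 4 measured erythroid markers 1 passed, of 4 B cell markers 3, of 6 T and NK cell markers 2 and of 6 epithelial markers 4. The B cell marker CD79A read 4.20 in control, 4.64 in moderate, 4.80 in profound 1 and 4.12 in profound 2. In the same order CD22 read 2.77, 3.00, 3.10 and 3.28, and PAX5 read 3.24, 3.16, 3.31 and 3.07. The epithelial marker CLDN4 read 2.74, 3.20, 3.35 and 3.12, the control value being below the table median. KRT8 read 3.91, 4.46, 3.84 and 4.35, and KRT18 read 3.25, 3.15, 3.35 and 3.15. KRT19 read 3.01, 3.31, 2.90 and 2.94. The markers of neither cell type moved alike.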
